A study of Saccharomyces cerevisiae with 12 samples.

Results

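The data described are the RNA-seq comparison of rad30Δ with WT budding yeast after 1 h of HO induction, 3 libraries of each strain (rad30Δ 1G and WT 1G) out of the 12 libraries of the series. Every gene with at least 10 reads over the 12 libraries was taken, which gave 6490 of the 7123 genes in the count table, and 21 mating-type genes were set apart from the rest. All strains were W303 derivatives. WT 1G and rad30Δ 1G cells grew in 2% raffinose, were held in G2/M with 80 µg/ml benomyl for 3 h and then received 2% galactose for 1 h, which drives the HO endonuclease from a galactose promoter. The other 6 libraries, WT G2 and rad30Δ G2, came from the same arrest before galactose was added. No library had galactose without HO, so a response to the break cannot be told apart from a response to galactose. The strain list of the study gives WT and rad30Δ strains of both mating types, several of them with the smc1-259 allele and a galactose-driven SMC1-MYC gene, and the labels do not say which of them was sequenced. SMC1 reads rose with galactose in both strains, as given below. Every listed strain with the galactose-driven gene also carries smc1-259, so both sequenced strains likely carried the 2 together. The libraries are called triplicates without mention of separate cultures, so a p-value here reflects only how far these samples spread, which may be technical.

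RAD30 encodes Polη, the translesion polymerase that copies DNA past ultraviolet lesions and that is also needed in yeast for cohesion formed in response to DNA breaks. HO cuts the mating-type locus MAT on chromosome III. The allele at MAT sets the cell type: in α cells the α1 protein acts with Mcm1 to switch on α-specific genes, and the α2 protein acts with Mcm1 to switch off a-specific genes, which Mcm1 otherwise keeps active in a cells. A haploid strain therefore shows its mating type in its pheromone and receptor transcripts.

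Short promoter stretches are shown first because 3 of the gene groups described here have well-studied regulatory sites. They were read from the R64 genome (RefSeq), the assembly that sacCer3 names, within the 300 bases before each annotated start codon, and each stops at least 100 bases before that codon. The first set belongs to a-specific genes, with the core of the α2 site, CATGTA on either strand, in capitals.
STE2 (chrVI:82326-82431, plus strand): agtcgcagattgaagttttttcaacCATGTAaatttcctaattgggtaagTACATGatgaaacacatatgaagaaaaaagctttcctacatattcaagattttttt
MFA2 (chrXIV:352138-352243, plus strand): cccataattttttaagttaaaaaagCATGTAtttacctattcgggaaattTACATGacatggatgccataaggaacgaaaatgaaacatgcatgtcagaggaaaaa
STE6 (chrXI:46452-46557, minus strand): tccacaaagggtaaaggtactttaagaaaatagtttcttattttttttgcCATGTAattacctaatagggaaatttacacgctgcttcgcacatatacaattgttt
All 7 a-specific genes held CATGTA in this window, against 677 of the 5883 genes with a window (11.5%). Each of the 7 also held the core bound by Mcm1 (CC and GG with 6 bases of any kind between them), which 28.6% of all windows hold. The pheromone response element TGAAACA was in 5 of the 7 a-specific windows and in 7.09% of all windows. Among the 5 α-specific genes, 1 window held CATGTA, 1 held TGAAACA and 1 held the Mcm1 core. The motifs were searched one by one on both strands, so matches could overlap.

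A second set belongs to subunits of the proteasome and to ECM29, whose protein binds the proteasome, with GGTGGCA in capitals. These letters, on either strand, are the core of the element bound by Rpn4, the transcription factor of proteasome genes. They were searched after the proteasome values had been seen.
PRE6 (chrXV:255180-255236, plus strand): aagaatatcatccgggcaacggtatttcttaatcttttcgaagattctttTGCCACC
RPT5 (chrXV:544815-544921, plus strand): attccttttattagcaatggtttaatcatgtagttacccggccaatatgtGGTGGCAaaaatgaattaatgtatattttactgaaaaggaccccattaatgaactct
PRE9 (chrVII:761183-761289, plus strand): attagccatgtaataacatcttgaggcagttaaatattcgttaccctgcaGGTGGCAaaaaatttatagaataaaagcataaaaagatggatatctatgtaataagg
ECM29 (chrVIII:39903-39983, plus strand): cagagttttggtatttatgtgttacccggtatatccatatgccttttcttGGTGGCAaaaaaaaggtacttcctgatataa
GGTGGCA was in 27 of 33 proteasome windows (81.8%) and in 160 of all 5883 (2.72%). The last set belongs to amino acid synthesis genes, with the Gcn4 site TGACTC in capitals. Gcn4 is the activator of the general amino acid control.
ARG4 (chrVIII:141526-141631, minus strand): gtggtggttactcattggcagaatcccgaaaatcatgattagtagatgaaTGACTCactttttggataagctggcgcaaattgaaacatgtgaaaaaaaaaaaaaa
ARG8 (chrXV:58529-58634, plus strand): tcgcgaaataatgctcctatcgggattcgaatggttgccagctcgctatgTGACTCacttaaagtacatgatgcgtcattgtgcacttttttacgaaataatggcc
ARO1 (chrIV:704211-704316, plus strand): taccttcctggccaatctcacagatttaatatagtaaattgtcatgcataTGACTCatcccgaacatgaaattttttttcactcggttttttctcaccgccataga
TGACTC, on either strand, was in 12 of 18 arginine and lysine genes (66.7%) and in 15 of 23 branched-chain, aromatic and histidine genes (65.2%). It was in 7 of 19 genes of cytosolic aminoacyl-tRNA synthetases (36.8%), against 463 of all windows (7.87%). Lists with few higher genes held it as well. It was in 14 of 19 purine and guanine nucleotide genes (73.7%), of which 15.8% were higher and 5.26% lower in rad30Δ 1G. Of the sulfate and methionine genes 7 of 24 held it (29.2%), with 12.5% higher and 20.8% lower. Over all 6490 genes 11.6% were higher and 11.8% lower. A match of letters describes the window and is no evidence of binding in these cells.

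The 6 libraries held 5442935 to 7063470 counted reads each. The rad30Δ 1G group was the wider one: distances between libraries over the 500 most variable genes were 14.6 to 15.6 log2 CPM within WT 1G, 19.9 to 28.3 within rad30Δ 1G and 25.6 to 31.5 between the strains (CPM, TMM-normalized read counts scaled to library size). Replicate 3 of rad30Δ 1G stood apart, with a normalization factor of 0.873 and 0.205% of reads on mitochondrial genes against 0.0114% to 0.0743% in the other 11 libraries, so values without it are given beside the lists and genes that it moved most.

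The deleted gene and the induced genes were examined first. RAD30 (chrIV:1303174-1305072, plus strand) was at 41.4, 46.1 and 38.6 CPM in WT 1G and had 0 reads in each rad30Δ 1G library. Since 0 reads allow for up to 3, a floor taken for each library that covers counting error only, RAD30 was at least 85.7-fold lower. HO transcripts were at 4761, 4597 and 4335 CPM in WT 1G and at 3693, 4201 and 4694 CPM in rad30Δ 1G, so the strains overlapped (log2 fold change −0.12, SE 0.09, adjusted p = 0.383, from the quasi-likelihood test of edgeR, adjusted by Benjamini-Hochberg). In G2 arrest HO had been at 35.7 to 42.8 CPM in all 6 libraries. SMC1, a cohesin subunit gene, was at 5621, 5730 and 5370 CPM in WT 1G and at 4289, 4214 and 3474 CPM in rad30Δ 1G. The strains did not overlap, and SMC1 was lower in rad30Δ 1G (log2 fold change −0.48, SE 0.09, adjusted p = 0.00252). It had been at 147 to 190 CPM in G2 arrest, so most SMC1 reads at 1G appeared with galactose. Reads of the native and a galactose-driven copy cannot be told apart, so the strain difference cannot be read as one of the native gene. Of the 11 genes of the galactose regulon 2 were higher and 0 lower, with a median log2 fold change of 0.07, where 11.6% of all 6490 genes were higher and 11.8% lower. The 2 were GAL3, the inducer protein of the pathway (0.48, SE 0.12, adjusted p = 0.015), and GCY1 (0.51, SE 0.16, adjusted p = 0.0352). Both calls were lost without some libraries: GAL3 had adjusted p = 0.0569 without WT 1G replicate 3, and GCY1 had adjusted p = 0.0868, 0.0676, 0.124 and 0.117 without WT 1G replicates 1, 2 and 3 and rad30Δ 1G replicate 1.

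Apart from RAD30, the largest differences among well expressed genes were at mating-type genes. All 5 α-specific genes were higher in rad30Δ 1G and all 7 a-specific genes were lower, with median log2 fold changes of 3.61 and −3.21 against 0.00 over all genes tested. The summed level of the α-specific genes was 205, 188 and 180 CPM in WT 1G and 2650, 2719 and 3575 CPM in rad30Δ 1G. The a-specific genes summed to 1414, 1329 and 1440 CPM in WT 1G and to 89.2, 88.4 and 127 CPM in rad30Δ 1G. The WT libraries thus carried the transcripts of a cells and the rad30Δ libraries those of α cells, and an effect of the deletion cannot be told apart from an effect of mating type in anything described here. In bulk RNA, fewer cells with a transcript and less of it per cell cannot be told apart either.

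**Figure D1:**
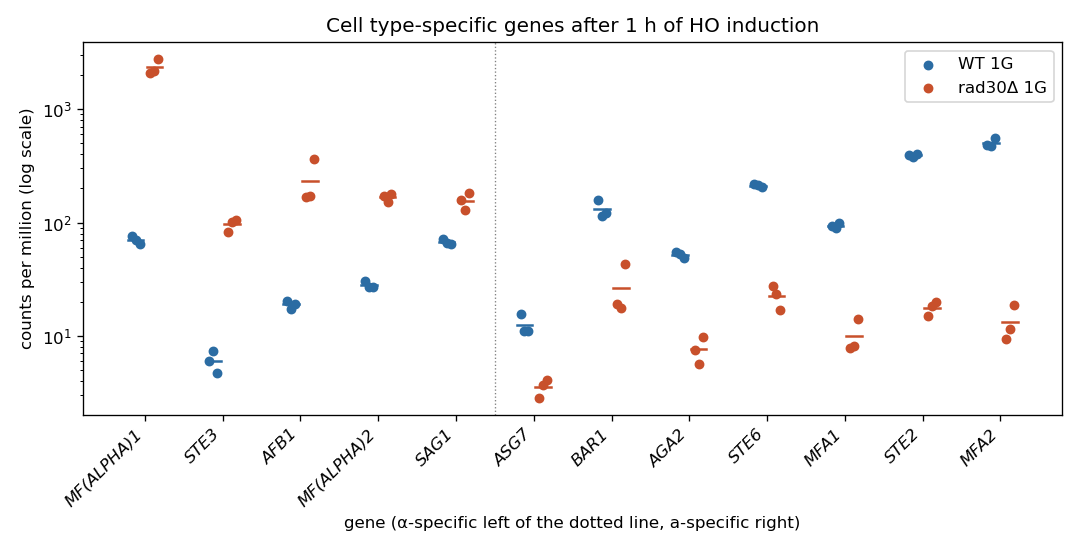
Levels (CPM, log axis) of the 5 α-specific and 7 a-specific genes, 1 point per library with the group mean as a bar. The WT 1G and rad30Δ 1G points of each gene do not overlap, with α-specific genes higher and a-specific genes lower in rad30Δ 1G.

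Among α-specific genes, MF(ALPHA)1, the major gene of the α-factor pheromone, was at 75.9, 70.6 and 65.0 CPM in WT 1G and at 2070, 2170 and 2751 CPM in rad30Δ 1G. Its log2 fold change of 5.05 (SE 0.12, adjusted p = 3.23e-11) was the largest rise of the group. STE3, the receptor with which α cells sense a-factor, was at 6.04, 7.41 and 4.72 CPM against 82.1, 102 and 105 CPM (3.99, SE 0.16, adjusted p = 5.35e-09). AFB1, an a-factor barrier gene, was at 20.5, 17.4 and 19.0 CPM against 168, 170 and 360 CPM (3.61, SE 0.30, adjusted p = 8.49e-06), with replicate 3 of rad30Δ 1G far above the other two. MF(ALPHA)2, the minor α-factor gene, was at 30.7, 27.1 and 27.0 CPM against 172, 151 and 178 CPM (2.56, SE 0.11, adjusted p = 5.35e-09). The α-agglutinin gene SAG1 differed least of the 5, from 71.4, 65.8 and 64.5 CPM to 158, 128 and 182 CPM (1.21, SE 0.11, adjusted p = 1.42e-05).

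Among a-specific genes, the a-factor gene MFA2 was at 481, 472 and 553 CPM in WT 1G and at 9.39, 11.5 and 18.9 CPM in rad30Δ 1G (log2 fold change −5.27, SE 0.20, adjusted p = 3.95e-09). STE2, the receptor for α-factor, was at 393, 376 and 402 CPM against 15.1, 18.3 and 19.9 CPM (−4.47, SE 0.12, adjusted p = 3.99e-11). Both carry a pair of CATGTA cores in the stretches printed above. MFA1, the second a-factor gene, was at 92.4, 89.3 and 98.7 CPM against 7.83, 8.14 and 14.2 CPM (−3.25, SE 0.19). STE6, the a-factor exporter, was at 217, 213 and 206 CPM against 27.5, 23.5 and 17.1 CPM (−3.21, SE 0.13). The other members were AGA2, the binding subunit of a-agglutinin (−2.79), BAR1, the protease that cleaves α-factor (−2.35), and ASG7 (−1.84), all called lower. BAR1 was highest in replicate 3 of rad30Δ 1G, at 43.0 CPM against 19.1 and 17.7 CPM, and still below the lowest WT 1G value of 114 CPM.

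At the mating loci, HMRA1 was at 54.2, 47.8 and 56.4 CPM in WT 1G and at 0.569, 0.461 and 0.584 CPM in rad30Δ 1G, which are 314, 258 and 335 reads against 4, 3 and 3 reads (log2 fold change −6.57, SE 0.16, adjusted p = 3.23e-11). The R64 genome carries MATα, so transcripts of MATa1 and of its silent copy HMRA1 cannot be told apart in these counts. RDT1, a transcript of the recombination enhancer that acts in mating-type switching of a cells, was at 14.8, 15.2 and 15.3 CPM against 0.142, 0.307 and 0.584 CPM (−5.47, SE 0.29, adjusted p = 1.19e-07). MATα and the silent HML locus hold copies of the α genes, and these gave almost no reads: MATALPHA1 had 0 reads in all 6 libraries, and MATALPHA2, HMLALPHA1 and HMLALPHA2 stayed at 0 to 1.42 CPM and did not pass. The counting could split or drop reads that match both copies, so these values do not show that the α genes were silent. HMRA2 was at 3.10, 0.926 and 3.37 CPM against 4.84, 10.9 and 3.70 CPM (1.39, SE 0.47, adjusted p = 0.0517), and it passed in some of the alternatives, with adjusted p = 0.0146 without rad30Δ 1G replicate 3. Neighbours of α-specific genes were measured with them. LIF1, a subunit of the ligase complex that joins broken ends, lies at chrVII:343319-344584 on the plus strand, and MF(ALPHA)2 at chrVII:344791-345153 on the minus strand, so the genes converge. It was at 25.9, 27.8 and 22.9 CPM against 39.8, 33.0 and 37.6 CPM (0.53, SE 0.09, adjusted p = 0.00129). NFG1 was at 26.2, 22 and 21.9 CPM against 30.6, 46.2 and 67.6 CPM (1.02, SE 0.22, adjusted p = 0.0058). The sources used here do not say whether counting used strand, and a part of transcripts from the neighbours in these reads was not tested.

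Genes of pheromone signalling and other haploid-specific genes were higher in part. Of 23 genes on this list 9 were higher (39.1%, against 11.6% of all genes), with a median log2 fold change of 0.13. The 3 lower genes (13%) were near the 11.8% of all genes. FAR1, the pheromone-activated cell cycle inhibitor, was at 655, 601 and 632 CPM in WT 1G and at 959, 975 and 1011 CPM in rad30Δ 1G (0.64, SE 0.06, adjusted p = 2.90e-05). SST2, which turns the signal off, was at 44.8, 43.9 and 41.4 CPM against 74.8, 78.9 and 63.5 CPM (0.74, SE 0.09, adjusted p = 0.000104). GPA1, the α subunit of the G protein, was also higher (0.42), as were AGA1 (0.62) and FUS1 (0.67), while the karyogamy factor KAR4 was lower (−0.60). No group overlapped in these 6 genes, which is usual for called genes: 1476 of the 1506 called outside those set apart did not overlap, and 36.7% of all 6490 genes did not.

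Outside the 27 tested mating-type and construct genes, 6463 genes were compared. Of these, 748 were higher and 758 lower in rad30Δ 1G, as counted by edgeR's quasi-likelihood test at an adjusted p under 0.05. The differences were small: the median size of a called log2 fold change was 0.44, and 39 of the higher and 50 of the lower genes differed more than 2-fold. Of the 1506 called genes, 1476 had 3 WT 1G and 3 rad30Δ 1G values that did not overlap, and 36.7% of all 6490 genes, called or not, had such values. Over all 6490 genes the counts were 756 higher and 769 lower (23.5% called). They fell to 478 and 508 without WT 1G replicate 1, to 477 and 510 without replicate 2 and to 408 and 484 without replicate 3, and came to 464 and 422 in a fit of the 6 libraries alone.

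**Figure D2:**
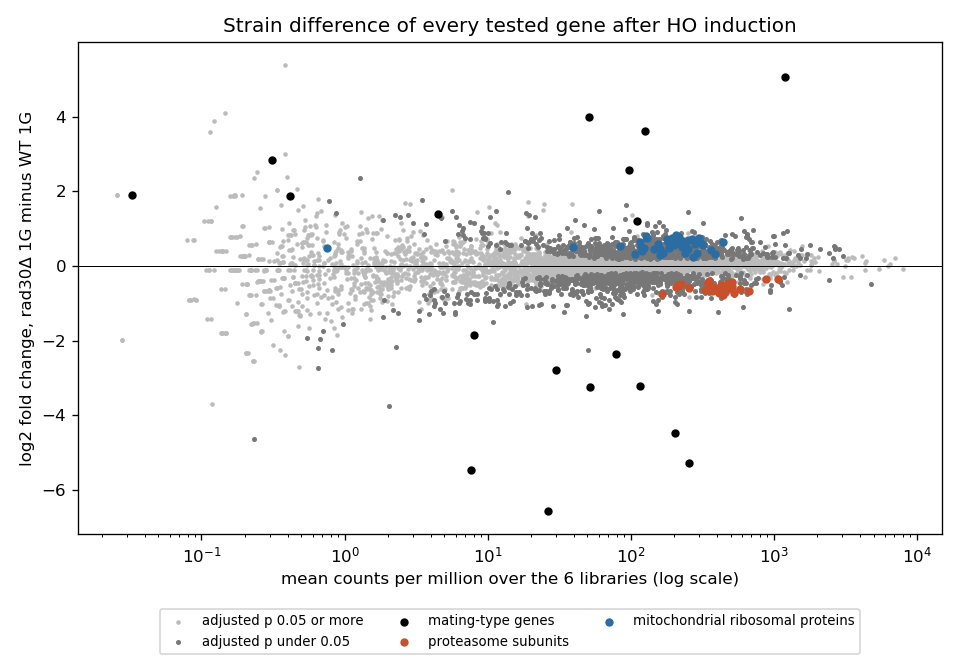
Log2 fold change of rad30Δ 1G against WT 1G for each tested gene other than RAD30, plotted against its mean CPM over the 6 libraries on a log axis. The outermost points among well expressed genes are mating-type genes, the 33 proteasome genes lie below 0 and the 43 genes of mitochondrial ribosomal proteins lie above 0.

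The 15 largest rises, taken among called genes outside those set apart that averaged at least 10 CPM and whose groups did not overlap, were of varied roles. PST1, which encodes a cell wall protein, was at 128, 150 and 127 CPM in WT 1G and at 386, 348 and 367 CPM in rad30Δ 1G (log2 fold change 1.44, SE 0.08, adjusted p = 2.53e-07). OPT2, an oligopeptide transporter gene, was at 42.9, 46.3 and 48.4 CPM against 184, 128 and 112 CPM (1.63, SE 0.16, adjusted p = 2.06e-05). GUT1, the glycerol kinase gene, was at 193, 211 and 193 CPM against 459, 461 and 408 CPM (1.15, SE 0.10, adjusted p = 1.42e-05). All 3 genes were well apart between the strains. YIG1 (1.47), ACH1, a CoA transferase gene (1.29), AIM10 (1.23), DIP5, an acidic amino acid permease (1.17), BSC1 (1.98), YOR343C (1.32) and YBL100C (1.11) were also among the 15 largest rises. The remaining 5 were open reading frames of Ty elements, YCL019W, YPR158C-D, YPR137C-B, YML045W and YJR029W, at log2 fold changes of 1.14 to 1.47. Ty elements have near-identical copies whose reads the counting could split or drop, so these 5 are uncertain. The call of YML045W was lost without any 1 of the WT 1G libraries or rad30Δ 1G replicates 1 or 2 (adjusted p = 0.054 to 0.098), and that of YPR137C-B without WT 1G replicate 1 or 3 or rad30Δ 1G replicate 1 (adjusted p = 0.0513 to 0.0724).

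The 15 largest falls by the same rule included several genes of the stress response. SDH9, a minor paralogue of a succinate dehydrogenase subunit gene, was at 77.4, 89.1 and 85.1 CPM in WT 1G and at 19.3, 15.4 and 18.1 CPM in rad30Δ 1G, the largest fall under that rule (log2 fold change −2.25, SE 0.14, adjusted p = 3.25e-07). MAG1, the glycosylase that removes alkylated bases, was at 99.2, 91.9 and 101 CPM against 46.8, 39.0 and 45.6 CPM (−1.15, SE 0.09, adjusted p = 4.64e-06). FAT3, a fatty acid uptake gene, was at 200, 225 and 228 CPM against 103, 79.8 and 97.5 CPM (−1.22, SE 0.11, adjusted p = 1.54e-05). TIR1 (−1.51) and TIR3 (−1.09), cell wall mannoprotein genes, SHH4 (−1.34), HBN1 (−1.08) and YPL119C-A (−1.09) were lower as well. Stress genes in this group were SSA4, HSP26, HSP12 and BTN2, and the call of ADY2 (−1.08), an acetate transporter gene, was lost without WT 1G replicate 3 (adjusted p = 0.0621).

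Outside the mating-type genes, the list with the highest share of members called was that of the proteasome, the protease complex that degrades ubiquitin-marked proteins. Of 33 subunit genes 31 were lower (93.9%, against 11.8% of all genes) and 0 higher in rad30Δ 1G, with a median log2 fold change of −0.59, against 0.00 over all genes tested. Their summed level was 17562, 17232 and 17363 CPM in WT 1G and 11593, 11115 and 12655 CPM in rad30Δ 1G, without overlap. PRE6, an α-ring subunit of the core particle, was at 513, 511 and 532 CPM against 321, 313 and 309 CPM (−0.72, SE 0.06, adjusted p = 9.40e-06). RPT5, an ATPase of the regulatory particle, was at 550, 578 and 566 CPM against 355, 357 and 335 CPM (−0.70, SE 0.06, adjusted p = 1.40e-05). Both subcomplexes were lower, with PRE9 at −0.67 and PRE5 at −0.73 beside RPT6 at −0.69 and RPN10 at −0.65.

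The pair of proteasome genes that did not pass were RPN1 and RPN2, the scaffold subunits of the regulatory particle. RPN1 was at 1300, 1155 and 1155 CPM in WT 1G and at 568, 588 and 1654 CPM in rad30Δ 1G (log2 fold change −0.36, SE 0.32, adjusted p = 0.459). RPN2 was at 998, 944 and 1017 CPM against 678, 655 and 992 CPM (−0.35, SE 0.13, adjusted p = 0.0633). In both, replicate 3 of rad30Δ 1G lay within or above the WT values while the other two lay below. Without that library all 33 subunit genes were lower, with a median of −0.57. Before galactose, 32 of the 33 had been lower, with a median of −0.62 (rad30Δ G2 against WT G2, where 6.10% of all genes were lower). A pair of genes that the study had examined and whose proteins work with the proteasome, ECM29 and NPL4, were lower too. ECM29 was at 299, 271 and 287 CPM against 141, 146 and 133 CPM (−1.03, SE 0.07, adjusted p = 1.52e-06), and NPL4, a cofactor of the Cdc48 segregase, was at 150, 148 and 155 CPM against 102, 97.0 and 76.1 CPM (−0.71, SE 0.10, adjusted p = 0.000328).

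**Figure D3:**
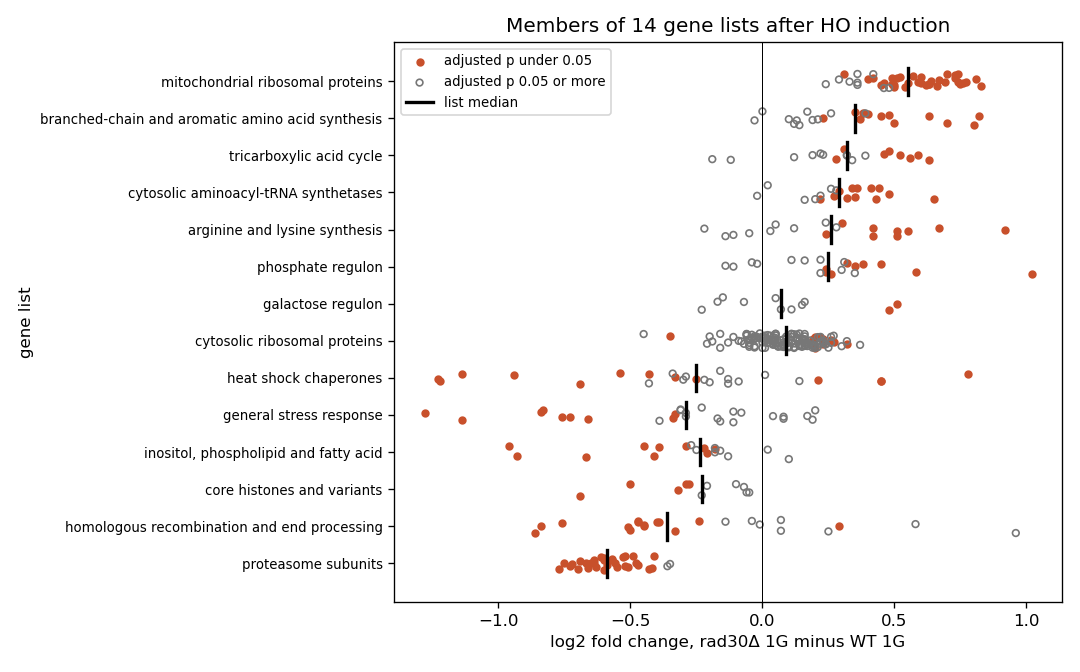
Log2 fold change of rad30Δ 1G against WT 1G for the members of 14 gene lists, 1 point per gene, filled where the adjusted p was under 0.05, with the list median as a bar. Proteasome subunits (median −0.59) and mitochondrial ribosomal proteins (median 0.55) hold the outer places.

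Genes of homologous recombination, the repair of breaks by copying a sister or homologous sequence, were mostly lower. Of 22 genes 13 were lower (59.1%, against 11.8% of all genes) and 1 higher (4.55%, against 11.6%). The median log2 fold change was −0.36. Before galactose 9 of the 22 had been lower and 0 higher, with a median of −0.23 (rad30Δ G2 against WT G2, where 6.10% of all genes were lower). Without replicate 3 of rad30Δ 1G 13 were lower and 3 higher. Calls over all 6490 genes rose without that library, from 769 to 1036 lower and from 756 to 967 higher. RAD52, a central gene of this pathway, was at 268, 262 and 256 CPM in WT 1G and at 128, 151 and 160 CPM in rad30Δ 1G (−0.84, SE 0.08, adjusted p = 1.88e-05). SGS1, a helicase of end resection, was at 95.4, 94.9 and 116 CPM against 58.5, 51.9 and 58.0 CPM (−0.86, SE 0.09, adjusted p = 3.46e-05). Genes of all 3 subunits of RPA, which coats single-stranded DNA, were lower, RFA1 at −0.45, RFA2 at −0.50 and RFA3 at −0.47. RAD59 (−0.76), the nuclease genes DNA2 (−0.51) and EXO1 (−0.45), RAD54 (−0.47), RAD50 (−0.39) and the helicase gene SRS2 (−0.33) were lower too. MRE11 (−0.01) and XRS2 (0.07), partners of RAD50, did not pass.

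Other repair and damage lists held fewer calls. In translesion synthesis and damage tolerance 2 of 11 genes were lower (18.2%, against 11.8% of all genes) and 0 higher. They were UBC13, which with Mms2 builds ubiquitin chains on PCNA (193, 198 and 210 CPM in WT 1G, 110, 112 and 151 CPM in rad30Δ 1G, log2 fold change −0.69, SE 0.11, adjusted p = 0.000704), and the polyubiquitin gene UBI4 (−0.38, SE 0.06, adjusted p = 0.000722). Of 11 genes of ribonucleotide reductase and its control 3 were lower and 0 higher, which is 27.3% lower against 11.8% of all genes. They were SML1, the inhibitor of the enzyme (−0.41, adjusted p = 0.00291), RNR3 (−0.35, adjusted p = 0.042) and HUG1 (−0.93, adjusted p = 0.0473). HUG1 lost its call without any 1 of the 6 libraries (adjusted p = 0.0615 to 0.153), and RNR3 without WT 1G replicate 2 or 3 or rad30Δ 1G replicate 1 or 2 (0.0838 to 0.157), while SML1 kept its call in each alternative. Of 14 checkpoint genes 1 was higher (CHK1, 0.34, adjusted p = 0.0289) and 1 lower (RAD9, −0.26, adjusted p = 0.0275), 7.14% each. CHK1 lost its call without WT 1G replicate 2 or 3 or rad30Δ 1G replicate 1 (adjusted p = 0.0982 to 0.102), RAD9 without any 1 WT 1G library or rad30Δ 1G replicate 1 (0.0539 to 0.0881), and in the fit of the 6 libraries alone 0 of the 14 passed. Cohesin genes had 4 lower of 12 (33.3%), with a median of −0.18. They were SCC2 (−0.45), the cohesin loader, PDS5 (−0.32), IRR1 (−0.24) and the securin gene PDS1 (−0.36). IRR1 and PDS1 lost their calls without any 1 library other than rad30Δ 1G replicate 3 (adjusted p = 0.0506 to 0.161). Without that replicate 6 of the 12 were lower, where the lower calls over all 6490 genes rose from 769 to 1036.

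Core histone genes were lower in 5 of 11 cases (45.5%) and higher in 0, where 11.8% of all genes were lower and 11.6% higher. Their median log2 fold change was −0.23. HHF1, a histone H4 gene, was at 664, 660 and 645 CPM in WT 1G and at 416, 405 and 397 CPM in rad30Δ 1G (−0.69, SE 0.07, adjusted p = 2.90e-05). Its sister gene HHF2 was at −0.07 and did not pass (adjusted p = 0.563). HTB1, a histone H2B gene, was at 578, 560 and 539 CPM against 402, 357 and 430 CPM (−0.50, SE 0.09, adjusted p = 0.00157). HHT1 (−0.32), HTB2 (−0.29) and HTA2 (−0.28) were the others, and 2 of the 11 were called lower in the fit of the 6 libraries alone. HHT1 had adjusted p = 0.0501 without WT 1G replicate 2, HTB2 had 0.075 and 0.0696 without WT 1G replicate 1 and rad30Δ 1G replicate 2, and HTA2 had 0.0592 to 0.135 without any 1 library other than rad30Δ 1G replicate 1. Among 24 genes of histone chaperones and chromatin assembly 8 were lower (33.3%) and 1 higher (4.17%), and 3 were lower and 1 higher in the fit of the 6 libraries alone. SPT16 of the FACT complex was at −0.44 (SE 0.06, adjusted p = 0.000323) and NAP1, the one that was higher, at 0.50 (SE 0.11, adjusted p = 0.00702). Of 12 RNA polymerase II subunit genes 2 were lower (16.7%, against 11.8% of all genes). Both lost their calls in the fit of the 6 libraries alone, where 0 of the 12 passed.

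Nuclear genes of mitochondrial ribosomal proteins had the highest share of higher members of any list outside the mating-type genes. Of 43 genes 34 were higher and 0 lower in rad30Δ 1G, and all 43 log2 fold changes were above 0, with a median of 0.55. Their summed level was 7284, 6891 and 7466 CPM in WT 1G and 9374, 9130 and 13311 CPM in rad30Δ 1G. The groups did not overlap, and replicate 3 of rad30Δ 1G was the highest. Without it 34 of 43 were still higher, with a median of 0.40. MRPL10 was at 144, 139 and 156 CPM against 229, 222 and 241 CPM (0.66, SE 0.07, adjusted p = 4.64e-05), and MRPL6 at 135, 127 and 145 CPM against 211, 202 and 260 CPM (0.73, SE 0.09, adjusted p = 0.000189). In contrast, of 138 cytosolic ribosomal protein genes 9 were higher and 1 lower, and of 84 ribosome biogenesis genes 6 were higher and 0 lower, shares below the 11.6% of all genes that were higher. Without replicate 3 of rad30Δ 1G these counts were 11 and 7, and 12 and 1, where 967 of all 6490 genes were higher (14.9%) and 1036 lower.

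Respiratory genes were higher in part. In the tricarboxylic acid cycle 8 of 18 genes were higher (44.4%, with 5 in the fit of the 6 libraries alone) and 0 lower, with a median log2 fold change of 0.32. Over all 6490 genes 11.6% were higher and 11.8% lower. FUM1, the fumarase gene, was at 1302, 1344 and 1289 CPM in WT 1G and at 1788, 1701 and 1934 CPM in rad30Δ 1G (0.46, SE 0.07, adjusted p = 0.000839), and KGD1, of the 2-oxoglutarate dehydrogenase, was at 567, 556 and 525 CPM against 959, 811 and 773 CPM (0.63, SE 0.10, adjusted p = 0.00108). In the nuclear genes of the respiratory chain and ATP synthase, 15 of 38 were higher (39.5%) and 3 lower (7.89%), with a median of 0.20. In the fit of the 6 libraries alone 7 of the 38 were higher and 2 lower. NDI1, the internal NADH dehydrogenase, was at 781, 724 and 686 CPM against 1394, 1063 and 1365 CPM (0.80, SE 0.13, adjusted p = 0.00075). The 3 lower genes were NDE2 (−0.74), an external NADH dehydrogenase, and CYC7 (−0.73) and COX5B (−0.48), isoforms used when oxygen is low. COX5B lost its call without WT 1G replicate 1 or 3 or rad30Δ 1G replicate 2 (adjusted p = 0.0511, 0.0851 and 0.0743). Genes of the glyoxylate cycle and gluconeogenesis were higher in 7 of 15 cases (46.7%) and lower in 2 (13.3%), and in 6 and 1 in the fit of the 6 libraries alone. JEN1, the lactate and pyruvate transporter, was at 497, 519 and 458 CPM against 945, 920 and 1000 CPM (0.96, SE 0.15, adjusted p = 0.000782), and MLS1, malate synthase, at 186, 209 and 219 CPM against 326, 318 and 366 CPM (0.72, SE 0.08, adjusted p = 8.99e-05).

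Transcripts of the mitochondrial genome itself did not follow. The 7 protein genes summed to 61.9, 55 and 74.0 CPM in WT 1G and to 33.2, 48.1 and 383 CPM in rad30Δ 1G, and none passed in edgeR's test. Their median log2 fold change was 1.15 with all libraries and −0.67 without rad30Δ 1G replicate 3, so this 1 library set the direction. The libraries were made from poly(A) RNA.

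Genes of amino acid synthesis and tRNA charging were higher in part. Of 23 genes of branched-chain, aromatic and histidine synthesis 12 were higher, HIS1 among them, and 0 lower (median log2 fold change 0.35). Of 18 genes of arginine and lysine synthesis 9 were higher and 0 lower (median 0.26). Without replicate 3 of rad30Δ 1G the counts were 15 and 0, and 10 and 2. Over all 6490 genes they then rose from 756 to 967 higher and from 769 to 1036 lower. ARG4, the last enzyme of arginine synthesis, was at 106, 99.9 and 110 CPM in WT 1G and at 198, 205 and 193 CPM in rad30Δ 1G (0.92, SE 0.08, adjusted p = 1.42e-05). ARG8, an aminotransferase of ornithine synthesis, was at 55.5, 56.3 and 57.0 CPM against 87.8, 77.8 and 73.8 CPM (0.51, SE 0.07, adjusted p = 0.000333). ARO1 (0.63), ARO4 (0.70) and ARO3 (0.45) of aromatic synthesis and LEU4 (0.82), which starts leucine synthesis, were higher too. Their groups did not overlap, as in 1476 of the 1506 called genes outside those set apart. The Gcn4 letters in the ARG4, ARG8 and ARO1 promoters are those printed above. Of 19 cytosolic aminoacyl-tRNA synthetase genes 12 were higher and 0 lower (median 0.29), with sums of 6132, 5958 and 5827 CPM in WT 1G and 7194, 7187 and 7516 CPM in rad30Δ 1G. DED81, the asparaginyl-tRNA synthetase, was at 433, 435 and 418 CPM against 637, 608 and 555 CPM (0.48, SE 0.07, adjusted p = 0.0004). In G2 arrest none of the 19 synthetase genes passed (median 0.10, with 4.71% of all genes higher), and none of them passed the test of the difference between 1G and G2. The sulfur amino acid list did not share the direction, with 3 higher (12.5%) and 5 lower (20.8%) of 24, and 2 higher and 8 lower without replicate 3 of rad30Δ 1G.

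**Figure D4:**
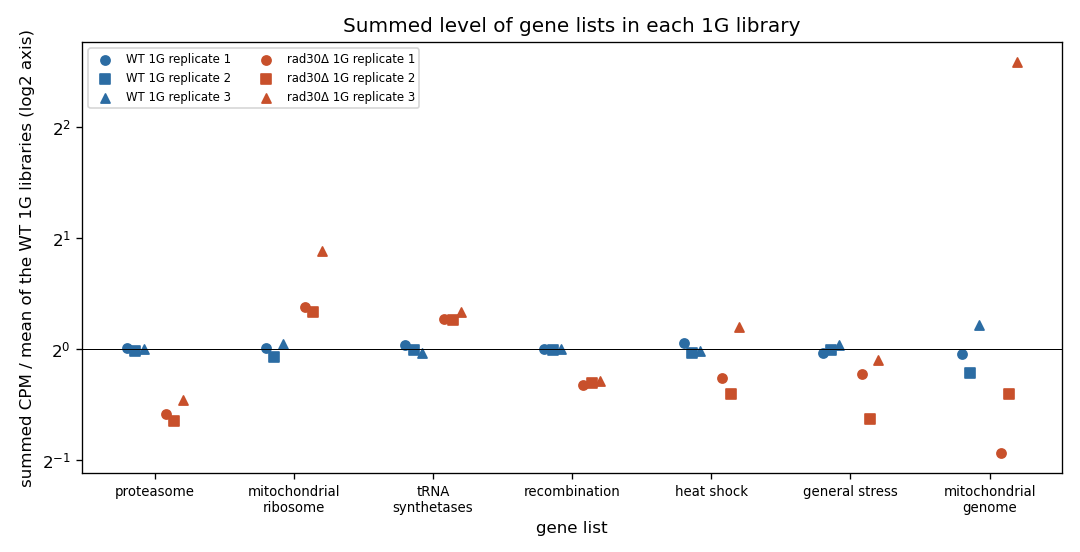
Summed level of 7 gene lists in each 1G library, divided by the mean of the 3 WT 1G libraries, on a log2 axis, 1 symbol per replicate. Proteasome and recombination sums lie below 1 and tRNA synthetase and mitochondrial ribosome sums above 1 in all 3 rad30Δ 1G libraries. Replicate 3 (triangles) departs from the other rad30Δ 1G libraries for mitochondrial ribosome, heat shock and mitochondrial genome genes.

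Heat shock genes depended on 1 library. Of 25 heat shock chaperone genes 9 were lower and 4 higher with all libraries (median log2 fold change −0.25), and 18 were lower and 4 higher without rad30Δ 1G replicate 3 (median −0.40), where the lower calls over all 6490 genes rose from 769 to 1036. Their sums were 30944, 29005 and 29386 CPM in WT 1G and 24820, 22452 and 34171 CPM in rad30Δ 1G, with replicate 3 above every WT library. SSA4, an inducible Hsp70, was at 509, 574 and 621 CPM against 170, 206 and 354 CPM (−1.23, SE 0.24, adjusted p = 0.00301), and HSP26, a small heat shock protein, at 308, 416 and 352 CPM against 119, 113 and 230 CPM (−1.22, SE 0.25, adjusted p = 0.00467). The 4 higher genes act at other places: SSC1 (0.45) and HSP60 (0.45) fold proteins in mitochondria, and SSB1 (0.78) and SSB2 (0.21) at the ribosome. Without WT 1G replicate 2 or 3 the calls of SSC1, HSP60 and SSB2 were lost (adjusted p = 0.0552 to 0.145), and that of SSB2 also without rad30Δ 1G replicate 1 or 2 (0.0867 and 0.0664). Of 26 general stress genes 9 were lower and 0 higher (median −0.29), and 13 were lower without replicate 3, beside that same rise over all genes. In the fit of the 6 libraries alone 5 general stress genes were lower, and 5 heat shock genes were lower and 1 higher. HSP12, a membrane-protecting stress protein, was at 1649, 1804 and 1886 CPM against 823, 632 and 961 CPM (−1.14, SE 0.15, adjusted p = 0.000176), and CTT1, cytosolic catalase, was at −0.83 (SE 0.12, adjusted p = 0.000467). SPI1 (−1.28) and SPG4 (−1.24), genes of stationary phase, were among the 15 largest falls, with replicate 3 of rad30Δ 1G near the WT values at 99.9 and 36.4 CPM. SPI1 lost its call without WT 1G replicate 2 or 3 or rad30Δ 1G replicate 1 or 2 (adjusted p = 0.0604, 0.0775, 0.0609 and 0.0627). SPG4 lost it without WT 1G replicate 2 or 3 or rad30Δ 1G replicate 2 (adjusted p = 0.0834, 0.0836 and 0.0701).

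Lipid, wall and phosphate genes completed the described groups. Of 18 inositol, phospholipid and fatty acid genes 10 were lower (55.6%, with 6 in the fit of the 6 libraries alone) and 0 higher (median log2 fold change −0.23). Over all 6490 genes 11.8% were lower and 11.6% higher. CHO2, the first methyltransferase of phosphatidylcholine synthesis, was at 265, 267 and 276 CPM in WT 1G and at 154, 127 and 134 CPM in rad30Δ 1G (−0.96, SE 0.08, adjusted p = 5.63e-06). OPI3, which adds the remaining methyl groups, was at 277, 275 and 285 CPM against 179, 173 and 173 CPM (−0.67, SE 0.06, adjusted p = 1.42e-05). INO1, inositol phosphate synthase, was at 49.7, 66.7 and 75.1 CPM against 27.6, 33.2 and 40.5 CPM (−0.93, SE 0.17, adjusted p = 0.00224). The strains did not overlap for these 3 genes, as for 1476 of the 1506 called genes outside those set apart. Of 34 genes listed for the cell wall 7 were higher (20.6%) and 9 lower (26.5%). The 9 include MLP1 (−0.37), here the nuclear pore gene YKR095W and not a wall gene. Among the others were the glucan synthase gene GSC2 (−0.72, SE 0.06, adjusted p = 1.42e-05) and the daughter cell gene DSE2 (−0.83, SE 0.08, adjusted p = 1.54e-05). Of 20 genes listed for the phosphate regulon 9 were higher (45%) and 0 lower (median 0.25), and 4 were higher in the fit of the 6 libraries alone. The 20 include CTF19, a kinetochore gene, which did not pass. The list was led by the acid phosphatase PHO5, at 49.7, 54.1 and 45.7 CPM against 110, 89.0 and 104 CPM (1.02, SE 0.09, adjusted p = 1.42e-05). Of 20 iron and copper uptake genes 0 passed, and their sums in rad30Δ 1G ran from 5113 to 12611 CPM.

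A list of 16 genes that the study examined, most of them by RT-qPCR or ChIP-qPCR and HIR1, HTZ1 and SET2 as deletion mutants, does not hold all the genes examined there. Of the 16, 10 were lower (62.5%, against 11.8% of all genes) and 0 higher (median log2 fold change −0.47), with 7 lower in the fit of the 6 libraries alone. The study picked some of its genes from Polη binding and some from its own RNA-seq results, so the direction of the list is not independent evidence. Besides ECM29, NPL4 and UBI4 they included AAC1, a mitochondrial ADP/ATP carrier, at 86.4, 94.3 and 75.5 CPM in WT 1G and 37.6, 45.8 and 38.5 CPM in rad30Δ 1G (−1.07, SE 0.12, adjusted p = 5.01e-05). RIM4, a meiotic regulator, was at 478, 497 and 428 CPM against 222, 232 and 318 CPM (−0.86, SE 0.14, adjusted p = 0.000921), and SOR1, sorbitol dehydrogenase, at −0.99 (SE 0.18, adjusted p = 0.00177). The 6 that did not pass were DDR48 (−0.31), TPO3 (−0.09), HIR1 (−0.08), HTZ1 (−0.10), ECO1 (−0.24) and SET2 (−0.15). ECO1, the cohesin acetyltransferase gene, passed without rad30Δ 1G replicate 3 (−0.47, adjusted p = 0.00645), and SET2, a histone methyltransferase gene, without rad30Δ 1G replicate 2 (−0.30, adjusted p = 0.0469).

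By coding length the strain difference was small. In 5 classes from short to long, the median log2 fold change was −0.05, −0.01, 0.03, 0.05 and 0.00, and the share of genes that were higher was 7.1%, 11.9%, 15.5%, 16% and 11.3%. The shortest class had the fewest higher genes. Its median was −0.11 without rad30Δ 1G replicate 3, and −0.13, −0.07 and 0.03 in the 3 rad30Δ 1G libraries taken singly against the WT 1G mean, so replicate 3 alone had the opposite sign. The share that was lower was 11.9%, 14.1%, 11.9%, 9.94% and 14.6%.

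The strain difference after induction was set beside the one in arrest, which was measured in 6 other libraries. The study harvested cells before and after induction, so G2 and 1G libraries of a strain may share cultures, which was not tested. Of the 1506 called genes outside the mating-type and construct genes, 1302 (86.5%) had the same sign in G2, against 65.1% of all such genes. The genes higher at 1G had median log2 fold changes of 0.43 at 1G and 0.20 in G2, and the lower genes −0.44 and −0.25. These genes were picked by their 1G values, which alone makes the G2 medians smaller. The medians therefore do not show that the strain difference grew. Of the 748 higher genes 216 (28.9%) were also called higher in G2, which is 72.5% of the 298 higher in G2. Of the 758 lower genes 302 (39.8%) were also called lower in G2, which is 78.2% of the 386 lower in G2. Across all these genes, which are not independent replicates, Pearson's r between both differences was 0.35.

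A test of the change of the strain difference (interaction) called 4 genes, all with a lower difference at 1G, and 0 genes with a higher one (0.0616% of 6490, edgeR's quasi-likelihood test). At an unadjusted p under 0.05 there were 458 and 409 genes with a higher and a lower difference, and DESeq2 called 36 and 30. Without rad30Δ 1G replicate 3 edgeR called 76 and 65. The 4 genes were MF(ALPHA)2, STE3, SAG1 and LIF1. Of the 5 α-specific genes 3 thus passed, and the median log2 fold change of the 5 was 4.88 in G2 and 3.61 at 1G. STE3 was at 663, 634 and 551 CPM in rad30Δ G2 and at 82.1, 102 and 105 CPM in rad30Δ 1G. MF(ALPHA)1, at 5.23 in G2 and 5.05 at 1G, did not pass (adjusted p = 0.615). For a-specific genes the medians were −3.56 and −3.21, and none passed.

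**Figure D5:**
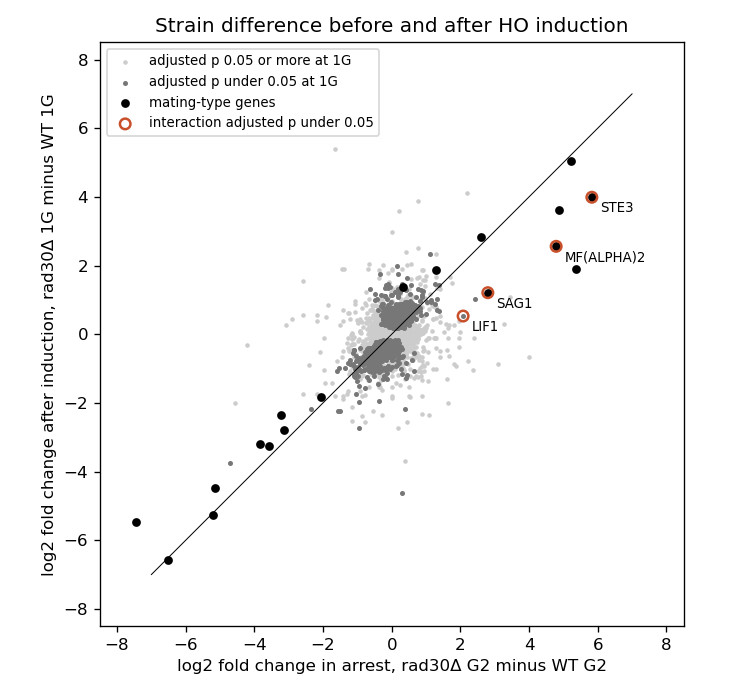
Log2 fold change between the strains after induction (rad30Δ 1G against WT 1G) plotted against that in arrest (rad30Δ G2 against WT G2), 1 point per gene other than RAD30, with the line of equality. The 4 circled genes, MF(ALPHA)2, STE3, SAG1 and LIF1, lie below the line, with a smaller difference after induction.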

How the data were processed

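RNA-seq of WT and rad30Δ cells was analysed from the gene counts that the authors deposited, integers per gene that were not normalized. Per the labels and the study's methods, the authors enriched poly(A) RNA, sequenced both ends and used cutadapt for trimming, HISAT2 for alignment to sacCer3, Picard for duplicates and featureCounts for counting. Versions and strandedness: not given in the sources used here. The authors' own tables of comparisons hold DESeq2 fold changes and p-values and were not used, except for their column of gene length, of which 98.1% were multiples of 3 and which is called coding length.

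Genes with a total of 10 or more reads (6490) were fitted with edgeR 4.0.16 over 12 libraries in 4 groups after TMM normalization (R 4.3.3, limma 3.58.1). Strain differences were tested with edgeR's quasi-likelihood test, Benjamini-Hochberg adjusted over all genes, with a threshold of 0.05. All fold changes are rad30Δ minus WT. Symbols and positions came from the R64 annotation, to which 6044 IDs matched. Named were the construct and mating-type genes, the 15 largest rises and falls among called genes that averaged 10 CPM or more and did not overlap, up to 4 members per list with the smallest p, the list of genes the study examined and every gene called in the interaction. Other list members, among them RPN1, RPN2, RAD59 and INO1, were named after their values were seen. Some genes are not reported here. The members and the 45 lists were chosen with earlier results of these data known. Alternatives were DESeq2 1.42.0, RLE normalization, other filters, nuclear open reading frames, the 6 libraries alone, replicate blocks and leaving out each library. Total reads, 5442935 to 7289514 per library, limit precision for genes with few reads. The fit was tested on simulated data. Promoters were read in Python 3.11.15 from the R64 genome.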

Additional observations from a re-analysis of the deposited data

Results flagged for a closer look

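The strain difference of 4 genes changed between arrest and HO induction by a test of that change itself (interaction in edgeR's quasi-likelihood test over the 12 libraries, Benjamini-Hochberg adjusted). The difference in log2 fold change was −2.24 (SE 0.14, adjusted p = 8.23e-06) for MF(ALPHA)2, which went from 1126, 974 and 1119 CPM in rad30Δ G2 to 172, 151 and 178 CPM in rad30Δ 1G and from 42.9, 37.3 and 35.7 to 30.7, 27.1 and 27.0 CPM in WT. For STE3 it was −1.84 (SE 0.23, adjusted p = 0.00482), and for SAG1 −1.59 (SE 0.15, adjusted p = 2.87e-04). For LIF1, the convergent neighbour of MF(ALPHA)2, it was −1.55 (SE 0.12, adjusted p = 5.09e-05), with 118, 121 and 123 CPM in rad30Δ G2, 39.8, 33.0 and 37.6 CPM in rad30Δ 1G, and 22.9 to 28.9 CPM in all 6 WT libraries. In each of these 4 genes all 3 rad30Δ 1G libraries lay below all 3 rad30Δ G2 libraries.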

How the results depend on the processing

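The counts of genes that differed between the strains after induction (756 higher, 769 lower) stayed within 1.5 times under DESeq2 (854 and 712), RLE normalization (804 and 721), filterByExpr (776 and 772), no filter (741 and 751), nuclear open reading frames (779 and 775) and a replicate block over the 12 libraries (786 and 779). They were 464 and 422 with the 6 libraries alone and 354 and 317 with a replicate block in the 6 libraries. Leaving out each library gave 408 to 967 higher and 484 to 1036 lower genes, with the lowest counts without WT 1G replicate 3 and the highest without rad30Δ 1G replicate 3. The interaction (0 and 4 genes) gave 36 and 30 with DESeq2, 1 and 4 with a replicate block, 11 and 8 with a replicate block within strain, and, with 1 library left out, 0 to 76 and 4 to 65 genes. Replicate numbers did not pair the WT 1G with the rad30Δ 1G samples. Deviations of equal-numbered WT 1G and rad30Δ 1G libraries correlated at −0.01, 0.07 and 0.13 over all genes. Over genes of at least 10 CPM they correlated at −0.11, 0.17 and 0.16, so not every pair was above 0.1. Pairing of G2 with 1G libraries within a strain was not tested, and the main interaction test takes them as unpaired. Of 197 named genes tested, 183 passed and 117 of these passed under every alternative, 0 reversed, and the cause of the lost calls was not tested. Mating type cannot be told apart from the deletion, nor galactose from the break.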
